A study of Mus musculus with 6 samples.

Results

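Guanosines of cytosolic tRNAs were read for mismatched bases, missing bases and early read starts in small RNA from mouse brain. A guanosine was taken where the reference base was G, the reference was not mitochondrial and the position was listed in all 6 libraries. There were 1790 such guanosines on 133 references of 46 families, among 6130 positions listed in all 6 libraries. Copies with identical counts were entered once, which left 1635 distinct guanosines. The groups were brains labelled WT and brains labelled TRMT1L KO, with 3 libraries each, which the series calls biological triplicates. The RNA of both groups was depleted of ribosomal RNA and size-selected, and the strain, the age, the sex and the construction of the knockout are not given in the sources used here. The transcript of the targeted gene was not analysed here, so the labels were not checked against it.

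Guanosine is one of the most often modified tRNA bases, and several of its positions are methylated by dedicated enzymes. TRMT1L is a paralogue of TRMT1, which dimethylates guanosine 26 at the junction of the D arm and the anticodon arm. Guanosine 9 and guanosine 37 can carry a methyl group on the face that pairs with another base, and TRMT5 makes the one at 37. METTL1 methylates guanosine 46 on the other face. A group on the pairing face can make reverse transcriptase insert a wrong base, skip the base or stop, whereas a group elsewhere may leave no trace in the reads.

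The mismatch share is the percentage of bases read at a position that were not G. The stop share is the percentage of reads covering the next base that started there, and so did not reach the guanosine. Such a start can be an end of copying or the end of a tRNA fragment, and the counts do not tell these apart. The uncalled share is the percentage of covering reads with no base at the position, and the listed deletion share counts the deletions that the files give for it. Positions follow the conventional tRNA numbering, in which the anticodon is 34 to 36. Values below are for positions with at least 100 covering reads in each library unless a lower depth is named. For a stop share these are the reads covering the next base. For a listed deletion share they are the reads covering the base before.

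The 5′ parts of the references with high values at 6, 7, 9, 10 or 15 are printed first, so that each guanosine can be seen among its neighbours. They are the reference sequences of the deposited files, 5′ to 3′, and the capitals mark the guanosines described below.
Gly-TCC-1 (6 and 7): gcgttGGtggtatagtggtgagcatagctg
Val-AAC-4 (7): gtttctGtagtgtagtggttatcacgctcg
Asp-GTC-1 (6): tcctcGttagtatagtggtgagtatccccg
Pro-TGG-2 (6 and 9): ggctcGttGgtctaggggtatgattctcgc
iMet-CAT-1 (9 and 10): agcagagtGGcgcagcggaagcgtgctggg
Leu-TAG-2 (7 and 9): ggtagtGtGgccgagcggtctaaggcgctg
Gln-CTG-3 (10): ggttccatgGtgtaatggttagcactctgg
Lys-CTT-2 (15): gcccggctagctcaGtcggtagagcatggg

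The surroundings of guanosine 26, with 34 added in Asn-GTT-3, and of guanosine 37 in Pro-TGG-2 are shown because the wrong base at 26 differed between these families.
Ser-GCT-1 (26): tggttaaggcGatggactgct
Phe-GAA-1 (26): ttgggagagcGttagactgaa
Asn-GTT-3 (26 and 34): cggttagcgcGttcggctGttaaccgaaa
Leu-AAG-1 (26): ggtctaaggcGctggattaag
Val-AAC-4 (26): tggttatcacGctcgcctaac
Pro-TGG-2 (37): ctcgctttggGtgcgagaggt

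The WT libraries held 1769188 to 1870385 base calls at guanosines and the KO libraries 2405189 to 2667891. Coverage of a listed position ran from 30 to 8032 reads. Coverage ended near 8000 in every library, and 206 to 247 positions per WT library and 305 to 363 per KO library reached 7900 reads. Near-identical references, such as Ser-GCT-1 and Ser-GCT-4 or the Pro references, held almost equal counts and are not independent.

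Wrong calls were rare at most guanosines. Of 1063 distinct guanosines with 100 reads in each library, 527 had no mismatch in any library, and the median pooled mismatch share was 0.0029%. The share reached 0.1% at 201 of them, 1% at 57 and 5% at 19. The 5% sites lay at 6, 7, 9, 26, 50, 68 and 69. By region, 21 of 143 guanosines of the 5′ side of the acceptor stem reached 1%, as did 7 of 25 at position 9 and 8 of 15 at position 26. In the D arm 5 of 368 did, in the anticodon arm 5 of 185 and in the T arm 5 of 176. In the variable region 1 of 57 did, and on the 3′ side of the acceptor stem with base 73 it was 5 of 57. Just under the 5% line were Asp-GTC-2 at 6 with 4.57% and Val-CAC-1 at 7 with 4.47%, and just above it were Gly-CCC-3 and Gly-CCC-4 at 7 with 5.13%.

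**Figure D1:**
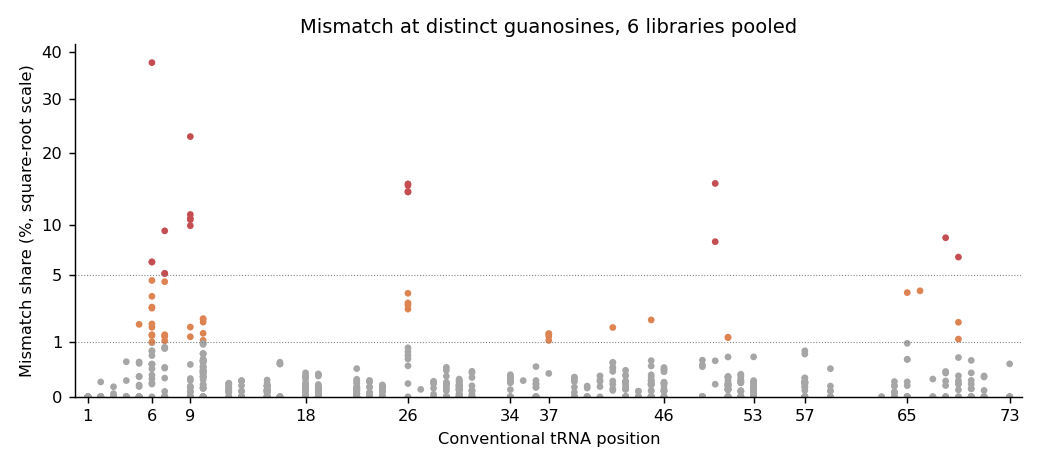
Mismatch share (%, square-root scale) of 1026 numbered distinct guanosines against the conventional tRNA position, with the 6 libraries pooled. Each point is 1 guanosine, red from 5%, orange from 1% and grey below, and the 4 highest points stand at 6, 9, 50 and 26. The point at 50 is Asp-GTC-2, whose wrong calls came almost wholly from WT replicate 2.

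The highest mismatch share belonged to guanosine 6 of Gly-TCC-1, a glycine tRNA with 2 guanosines in a row at 6 and 7. It was read as another base in 36.0%, 39.9% and 32.4% of WT reads and in 40.7%, 37.8% and 38.8% of KO reads. All 6 libraries stood above 30%, and the groups overlapped. The wrong base was thymine in 99.2% of the 9946 wrong calls. The guanosine after it was uncalled in 15.1%, 13.6% and 14.6% of WT reads and in 25.8%, 14.7% and 13.3% of KO reads, so KO replicate 1 stood apart from the other 5 libraries. In such a pair of guanosines the reads do not show which of the 2 was skipped. Mismatches at that guanosine 7 were 0.62%, 0.35% and 0.43% in WT and 2.40%, 1.17% and 1.01% in KO, again read as thymine.

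Guanosine 6 was also misread in aspartate and proline tRNAs. In Asp-GTC-1 the share was 6.76%, 2.94% and 4.97% in WT and 8.15%, 6.81% and 6.15% in KO, and thymine made up 82.0% of the wrong calls. Asp-GTC-4, with nearly the same reads, gave 6.14% pooled. In Pro-AGG-1, Pro-CGG-1 and Pro-TGG-2 the pooled mismatch share at 6 was 2.65% to 3.40%, and 4.91% to 5.59% of reads were uncalled there, while Pro-TGG-1 had a mismatch share of 0.264%. Among the other families at this position, His-GTG-2 had 1.27%, Lys-CTT 1.02% to 1.30%, Lys-TTT-1 1.79%, Gly-CCC-1 1.63% and Gly-GCC-2 0.0646%.

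Guanosine 7 was misread in the valine tRNA Val-AAC-4. The mismatch share there was 9.38%, 8.40% and 9.89% in WT and 10.8%, 8.39% and 8.90% in KO, with overlap between the groups, and 94.1% of the wrong calls were cytosine.

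At guanosine 9 mismatches were confined to a few families among those covered. In the initiator tRNA iMet-CAT-1 the share was 23.5%, 13.5% and 19.8% in WT and 24.0%, 30.9% and 19.8% in KO. Its wrong calls were mixed, with 25.9% adenine, 47.5% thymine and 26.6% cytosine. The guanosine 10 after it was uncalled in 8.61% of reads pooled, from 0% in KO replicate 3 to 23.5% in WT replicate 1. In the proline tRNA Pro-AGG-1 the share at 9 was 7.43%, 10.2% and 6.96% in WT and 19.98%, 6.14% and 10.2% in KO, and 89.0% of the wrong calls were cytosine. KO replicate 1 stood apart in each Pro reference at 9, where it had 16.7% to 19.98%. Glutamate tRNAs Glu-TTC-1 and Glu-TTC-2 had 1.22% and 1.64%, and Gly-TCC-1 had 0.353%. The Leu, Ser-GCT, Gly-GCC and Gly-CCC references at 9 had at most 0.0379%.

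**Figure D2:**
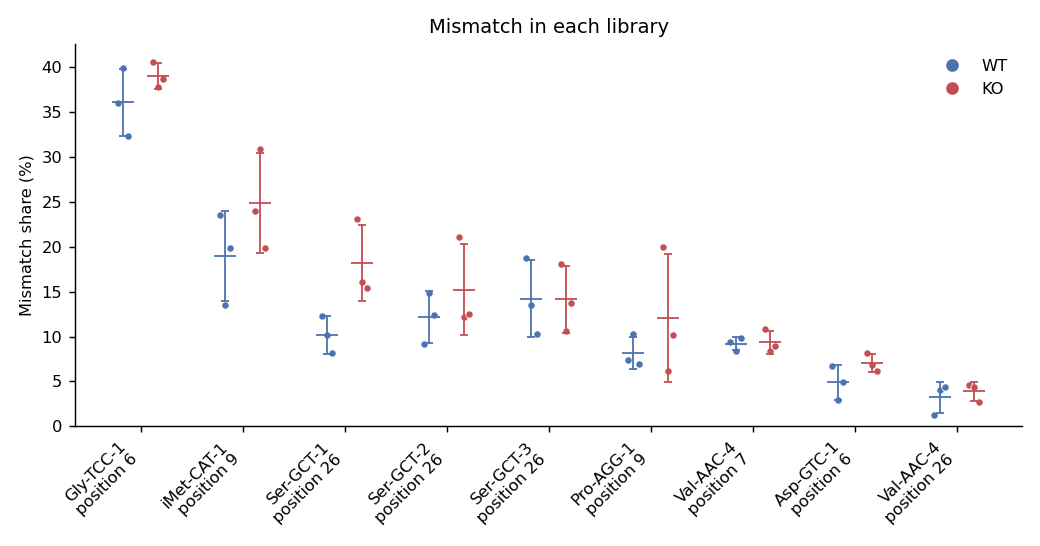
Mismatch share (%) in each library at 9 guanosines, named by reference and conventional position. Dots are the 3 WT (blue) and 3 KO (red) libraries, and bars are the mean with 1 SD; Ser-GCT-1 at 26 is the one site drawn here whose groups do not overlap, and KO replicate 1 is the high KO dot of Pro-AGG-1.

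At guanosine 26 the mismatch share and the wrong base both varied with the tRNA family. In the serine tRNA Ser-GCT-1 the mismatch share was 12.3%, 10.2% and 8.12% in WT and 23.1%, 16.1% and 15.4% in KO, and the 3 KO values lay above the 3 WT values. Ser-GCT-4 gave the same picture from shared reads. Ser-GCT-2 had 9.17%, 14.9% and 12.4% in WT and 21.1%, 12.2% and 12.5% in KO. Ser-GCT-3 had 18.8%, 13.5% and 10.3% in WT and 18.1%, 10.7% and 13.8% in KO. In both of these the groups overlapped. Ser-GCT-5 was lower, at 2.59% pooled. Adenine made up 96.3% to 100% of the wrong calls in the 5 Ser-GCT references.

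Valine tRNAs were misread less at 26. Val-AAC-4 had 1.29%, 4.01% and 4.37% in WT and 4.59%, 4.33% and 2.72% in KO, with 90.55% adenine. Val-AAC-2 and Val-CAC-3 had 2.97% and 2.83%, also mostly adenine, whereas Val-CAC-2 and Val-CAC-4 had 0.81% and 0.68% with no adenine at all among their wrong calls. Val-AAC-1, covered by over 8000 reads in each library, had 0% pooled. Gly-CCC-1 had 0.0589%.

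Below 100 reads some families were far higher at 26, with wide spread between libraries. In Asn-GTT-3, covered by 30 to 98 reads, the share was 20%, 19.4% and 70.0% in WT and 82.9%, 74.3% and 61.0% in KO, and 88.4% of the wrong calls were thymine. WT replicate 3 lay among the KO libraries there. In Phe-GAA-2, covered by 44 to 133 reads, it was 19.4%, 31.6% and 58.8% in WT and 32.5%, 21.1% and 11.2% in KO, and every wrong call was thymine. Ser-AGA-2, Ser-TGA-2 and Ser-AGA-1 had 10.99% to 12.4%, all adenine. Leu-AAG-1 had 4.68% with 26.4% of reads uncalled, and Arg-TCT-4 had 1.28% with 7.53% uncalled.

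**Figure D3:**
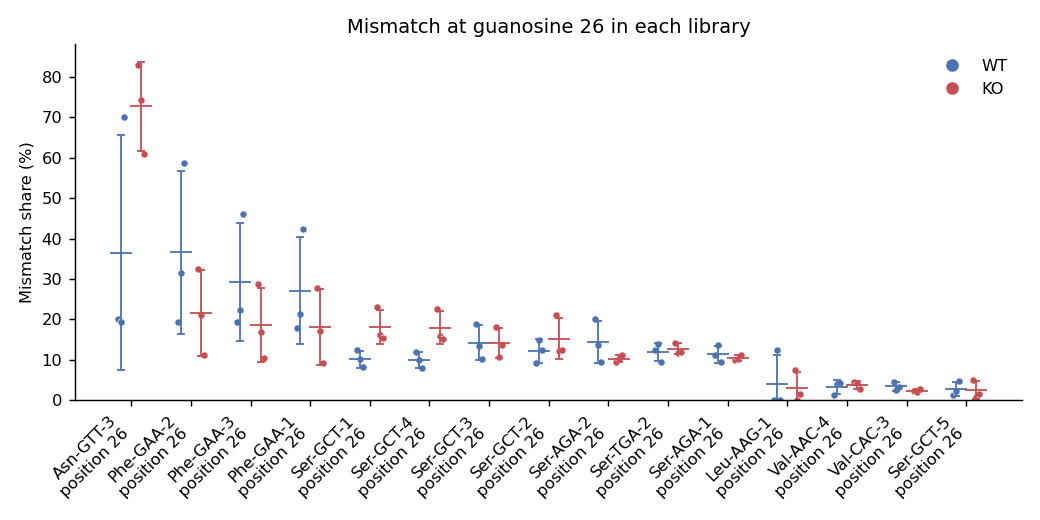
Mismatch share (%) at guanosine 26 of 15 references in each library, including references with under 100 reads (Asn-GTT-3, Phe-GAA, Ser-AGA, Ser-TGA-2 and Leu-AAG-1). Dots are the 3 WT (blue) and 3 KO (red) libraries and bars are the mean with 1 SD; Ser-GCT-1 and Ser-GCT-4, with shared reads, have no overlap between groups, and Asn-GTT-3 runs from 19.4% to 82.9%.

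Coverage of some tRNAs was lower at guanosine 26 than at the base before it. In Leu-AAG-1 the base before it was covered by 436, 502 and 471 reads in WT and by 473, 594 and 645 in KO. Guanosine 26 itself was covered by 32, 100 and 58 reads in WT and by 165, 86 and 82 in KO, so 16.8% of the coverage was kept over all libraries. Leu-AAG-2 kept 25.2%, and Ser-TGA-2, Ser-AGA-1 and Ser-AGA-2 kept 62.2% to 65.7%. Of the 31 references with a listed guanosine 26, the other 25 apart from Leu-TAG-3 with 81.4% kept 99.5% or more. KO replicate 1 kept the most in the Leu-AAG references, 34.9% and 51.8%.

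Tyrosine and alanine tRNAs were thinly covered at these positions. Guanosines 26 and 27 of Tyr-GTA were listed in KO libraries alone, with 33 to 43 bases read and 0 mismatches, so no comparison was possible. Guanosine 26 of Ala-AGC-3 was listed in all 6 libraries and had 0 mismatches in 34 to 142 bases, which allows a share of up to 2.11% to 8.82%. These limits cover counting error only. Ala-AGC-10, Ala-AGC-4 and Ala-AGC-5 were listed at 26 in KO libraries alone, and in KO replicate 1 they had 2 mismatches each, of 62, 89 and 65 bases. At guanosine 27 just Gly-TCC-1 passed, with 0.0185% pooled.

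The wobble guanosine 34, which is replaced by queuosine in Asn, Asp, His and Tyr tRNAs, showed little mismatch but a strong stop in Asn-GTT-3. The mismatch share at 34 was at most 0.164% over the listed references. In Asn-GTT-3 the stop share was 86.2%, 77.8% and 83.1% in WT and 79.5%, 69.1% and 69.1% in KO. It was the highest of all guanosines whose next base had 100 reads. All 6 libraries stood above 69%, and the groups overlapped. Guanosine 34 itself was covered by 44 reads or fewer in at least 1 library. Asp-GTC references had at most 3.12% at 34 and His-GTG-2 had 1.49%. With a minimum of 30 reads, 2 of 32 guanosines at 34 had a stop share of 10% or more. The 3 Asn-GTT references there ran from 3.52% to 77.3%.

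Guanosine 37, next to the anticodon, passed in 5 references. Leu-CAG-1 and Leu-CAG-2 had 1.34% and Leu-CAG-4 had 1.23%, with thymine as 90.1% to 98.6% of the wrong calls, whereas Leu-CAG-3 had 0.184%. In Leu-CAG-1 the shares were 2.18%, 0.62% and 2.46% in WT and 0.81%, 0.70% and 1.05% in KO. Pro-TGG-2 had 1.07% mismatch at 37, but 14.4%, 11.1% and 12.4% of its WT reads and 10.8%, 15.8% and 12.3% of its KO reads were uncalled there. This guanosine also follows another guanosine. His-GTG-2, covered by 55 to 171 reads, had 2.77%.

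At the other positions known to be modified the base was nearly always read as G. Guanosine 10 reached 1% in 5 of 56 references, with a highest value of 2.06% in Leu-AAG-1. There the wrong base was adenine in 85.9% of wrong calls. Guanosine 18, which can be methylated on its sugar, had at most 0.193% over 65 references. Guanosine 46 had at most 0.289% over 17 references.

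The wrong base differed between references at one and the same position. Over the 57 guanosines with a share of 1% or more, adenine led at 25, thymine at 19 and cytosine at 11, adenine and cytosine were tied at 2 (Val-AAC-2 and Val-CAC-3 at 7), and the leading base made up 90% or more of the wrong calls at 28. Leaving out the ties, the leading wrong base was the same as the next base of the tRNA at 24 of the 39 sites whose next base was not G. It was the same as the previous base at 8 of the 36 sites whose previous base was not G. At guanosine 26 it was the next base in Ser-GCT, followed by adenine and read as adenine, and in Phe-GAA and Asn-GTT-3, followed by thymine and read as thymine, but not in Val-AAC-4, followed by cytosine and read as adenine. These counts include near-identical references and carry no test. The leading wrong base was also looked for in the other listed references, for the sites above 5% and the misread sites at 26. Of 29 such sites whose neighbours were all listed, 0 had another reference with that base between the same 7 bases on either side, or fewer at the reference's start.

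The wrong base was nearly the same in both groups at the lead sites. At Gly-TCC-1 guanosine 6 thymine made up 99.3% of wrong calls in WT and 99.1% in KO. Cytosine made up 89.4% and 88.9% at Pro-AGG-1 guanosine 9, and adenine 98.6% and 100% at Ser-GCT-1 guanosine 26. At iMet-CAT-1 guanosine 9 thymine made up 39.0% of 82 wrong calls in WT and 50.7% of 223 in KO. At Val-AAC-2 guanosine 26 adenine made up 96.8% of 126 wrong calls in WT and 77.7% of 179 in KO, and cytosine the larger part of the rest. These differences were not tested.

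**Figure D4:**
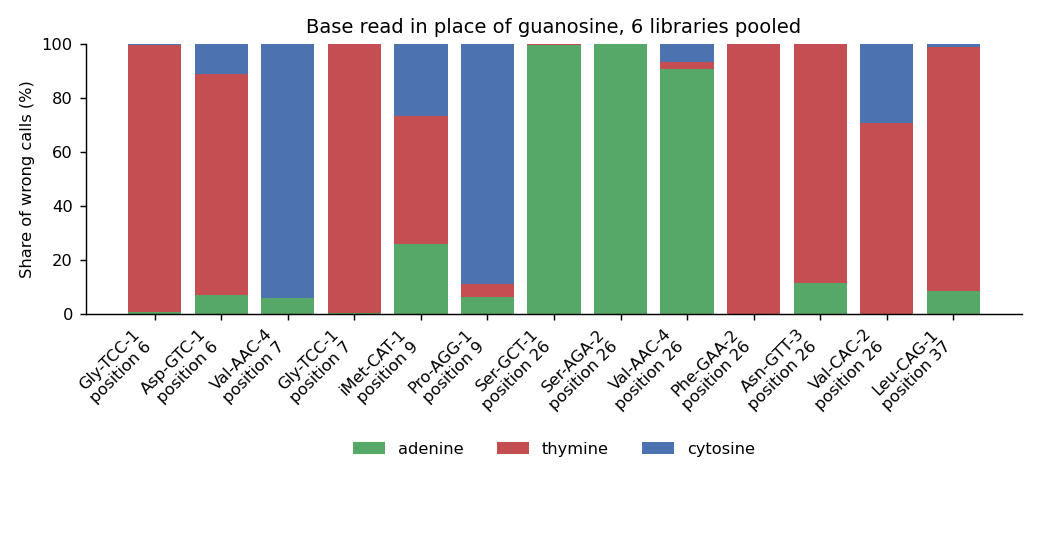
Share of wrong calls (%) that were adenine, thymine or cytosine at 13 guanosines, with the 6 libraries pooled. Each bar is 1 guanosine and adds up to all its wrong calls; thymine fills the Gly-TCC-1 bars, cytosine most of Val-AAC-4 at 7 and Pro-AGG-1 at 9, and adenine the Ser bars at 26.

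Uncalled bases were rarer than mismatches. Of the 1063 distinct guanosines, 20 were uncalled in 1% or more of reads, and 11 of these 20 (55%) followed another guanosine, against 33.9% of all 1063. Similar Glu references recur among the 11. They are Glu-CTC-1 and Glu-CTC-2 at 7 and 10, and Glu-CTC-1, Glu-TTC-1 and Glu-TTC-2 at 19. Of the 20, 6 also had a mismatch share of 1% or more. Among the listed deletions, guanosine 57 of Gly-TCC-1 had a pooled share of 13.5%. It was 9.94%, 12.3% and 8.07% in WT and 5.21%, 30.3% and 18.6% in KO. Another 8 of the 10 highest listed deletion shares, in Arg-CCT at 57, Pro at 6, Leu at 24 and iMet-CAT-1 at 9, had 2.74% to 5.96%.

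Stops and mismatches mostly fell at different guanosines, but at the 2 ends of the tRNA 1 of the 2 shares was always 0. At base 1 the mismatch share was 0% at all 31 guanosines, and 6 of them had a stop share of 10% or more. From 63 to 73 the stop share was 0% at every guanosine. The median stop share was 0.226% over 1065 distinct guanosines, 274 reached 1% and 58 reached 10%. Of the 17 sites with a mismatch share of 5% or more whose stop share could be read, each had a lower stop share than mismatch share, and the highest stop share among them was 5.46% at Ser-GCT-3 guanosine 26. Gly-TCC-1 guanosine 6 had a stop share of 0.627% against its mismatch share of 37.7%. Over the 55 sites with a mismatch share of 1% or more, Spearman's rho between the 2 shares was 0.18, as a description across sites that share libraries. Conversely, 47 guanosines had a stop share of 10% or more and 100 reads at the guanosine itself. Of these, 37 had a mismatch share under 0.1% and 2 had 1% or more.

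**Figure D5:**
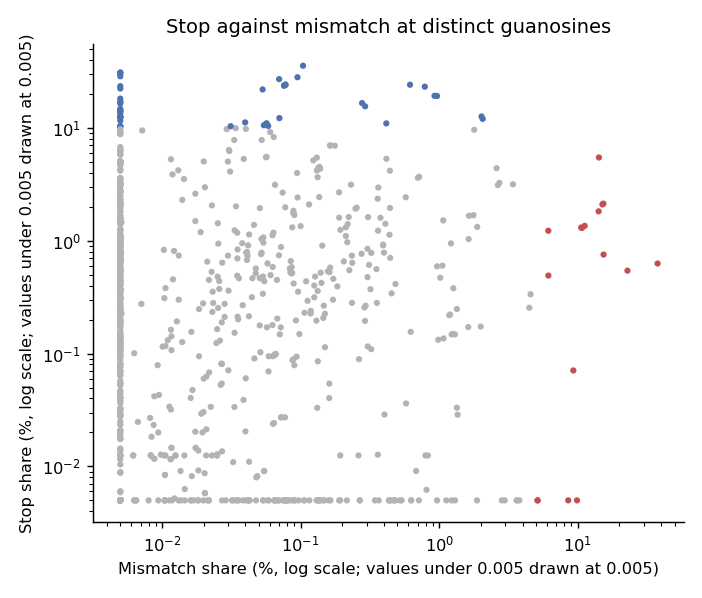
Stop share (%) against mismatch share (%) of 1044 distinct guanosines on log scales, with the 6 libraries pooled and values under 0.005 drawn at 0.005. Red points have a mismatch share of 5% or more and blue points a stop share of 10% or more, and no point is high in both. Guanosines at base 1 had no mismatch, and those from 63 to 73 had no stop.

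After Asn-GTT-3 at 34, the others of the 10 highest stops, with at most 2 taken per family, lay at 1, 7, 10, 15, 22 and 36. Guanosine 1 of Cys-GCA-24, the first base, had stop shares of 27.7%, 31.2% and 22.6% in WT and 45.2%, 43.2% and 40.03% in KO, so the 3 KO libraries lay above the 3 WT libraries. Such reads start at base 2, which was covered by 125 to 1871 reads, depending on the library. Gln-CTG-4 at 22 had 43.1%, 22.9% and 33.99% in WT and 43.6%, 28.3% and 35.5% in KO. Gln-CTG-3 at 10, the second of a pair of guanosines, had 53.5%, 35.5% and 36.3% in WT and 20.8%, 31.1% and 39.5% in KO. Leu-TAG-2 at 7 had 37.1%, 32.5% and 38.8% in WT and 14.8%, 31.4% and 38.6% in KO, with KO replicate 1 apart. Lys-CTT-2 at 15 had 22.3%, 30.5% and 28.8% in WT and 20.97%, 35.9% and 30.3% in KO, and Gln-TTG-1 at 36 had 30.0% pooled. Guanosine 15 pairs with base 48 inside the folded tRNA.

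Between the genotypes no mismatch difference passed. Over the whole table, mismatch was tested at 143 positions and 0 had an adjusted p under 0.05 (0%), and groups did not overlap at 3.5%. The test was a quasi-binomial model moderated with limma, with Benjamini-Hochberg adjustment over all positions. Of the 60 guanosines among them, 57 of them distinct, 0 were called, 5 had an unadjusted p under 0.05 and the smallest adjusted p was 0.553. The groups did not overlap at 3, each higher in KO: Ser-GCT-1 at 26, Ser-GCT-4 at 26 and Gly-TCC-1 at 7. At Ser-GCT-1 the mean was 10.2% ± 2.11 (SD, n = 3) in WT and 18.2% ± 4.26 (SD, n = 3) in KO (limma-moderated quasi-binomial test, adjusted p = 0.553). At Gly-TCC-1 guanosine 7 the WT mean was 0.468% ± 0.14 (SD, n = 3) against a KO mean of 1.53% ± 0.76 (SD, n = 3), with the same adjusted p of 0.553 from the limma-moderated test. Over the 60 the median difference, KO minus WT, was 0.19 percentage points, with 35 higher and 25 lower, and over all 143 positions it was 0.16.

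The mean differences over sites at guanosines 9 and 26 were smaller without KO replicate 1. At guanosine 9, over 25 sites, the mean mismatch share was 2.17% ± 0.121 (SD, n = 3) in WT and 2.98% ± 1.07 (SD, n = 3) in KO, a difference of 0.80 percentage points that was 0.19 without KO replicate 1 and 0.14 over the 7 sites with 500 reads. At guanosine 26, over 15 sites, it was 4.11% ± 0.357 (SD, n = 3) and 5.35% ± 1.32 (SD, n = 3), a difference of 1.23 points that was 0.48 without KO replicate 1 and -0.092 over the 7 sites with 500 reads. At guanosine 37, over 5 sites, it was 1.38% ± 0.581 (SD, n = 3) and 0.675% ± 0.081 (SD, n = 3), a difference of -0.71 points that became 0.0039 over the 15 sites with 30 reads. There the WT libraries had 1.65%, 0.717% and 1.78%, and the KO libraries 0.767%, 0.615% and 0.643%, so WT replicate 2 lay among the KO libraries, and leaving out any one library kept the difference between -1.04 and -0.51 points. At guanosine 9 the largest single differences were 5.94 points at iMet-CAT-1 and 3.85 to 3.96 at Pro-AGG-1, Pro-CGG-1 and Pro-TGG-2. At guanosine 26 they were 7.98 points at Ser-GCT-1 and 7.96 at Ser-GCT-4, which share reads, while Ser-GCT-3 had -0.055 and Val-CAC-3 -1.10. These means over sites were given no test.

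Stops were called at 4 guanosines, and each lay at the coverage limit in KO. Over the whole table, stops were tested at 1028 positions and 4 were called (0.389%), and groups did not overlap at 14.3%. Of 305 guanosines, 4 were called, all lower in KO, and 39 had an unadjusted p under 0.05. Of these calls 1 was left without WT replicate 1, 0 without WT replicate 2 and 1 without WT replicate 3. At guanosine 1 of Cys-GCA-1 the stop shares were 4.595%, 4.54% and 3.82% in WT and 0.0125% in each KO library (limma-moderated test, adjusted p = 8.74e-06), and the copies Cys-GCA-2 and -3 differed little from it. The base after it was covered by 3003, 2668 and 4421 reads in WT and by 8001, 8001 and 8000 in KO. At guanosine 30 of Gly-TCC-1 they were 2.21%, 4.34% and 2.87% in WT and 0.0125% in each KO library (limma-moderated test, adjusted p = 0.00173), with 5409 to 7370 covering reads in WT and 8024 or 8025 in KO. Without positions at the limit 0 guanosines were called. On the Cys-GCA references that stayed below the limit, guanosine 1 went the other way: Cys-GCA-24 had 27.2% ± 4.33 (SD, n = 3) in WT and 42.8% ± 2.63 (SD, n = 3) in KO (limma-moderated test, adjusted p = 0.259). The base after it was covered by 125 to 1871 reads there, so the depth also varied widely between libraries.

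The groups did not overlap at 65 of the 305 guanosines tested for stops, 44 higher and 21 lower in KO. This is 21.3% against the 14.3% of the whole table. Copies of one family weigh in this count. Over all 305, overlapping or not, 128 were higher and 177 lower in KO, with a median difference of -0.20 percentage points. With identical counts entered once, groups did not overlap at 46 of 274 guanosines (16.8%), against 125 of 970 positions of the whole table (12.9%). Near-identical references still count separately there. Among them are guanosines 1 to 4 of Cys-GCA-4, Cys-GCA-9, Cys-GCA-10, Cys-GCA-12 and Cys-GCA-24, all higher in KO. The 5 non-overlapping guanosines with the largest differences were guanosine 1 of these references, each 15.6 to 15.7 percentage points higher in KO. The next was guanosine 9 of Leu-TAG-2, with 24.1%, 23.1% and 19.05% in WT and 10.2%, 14.2% and 15.9% in KO (limma-moderated test, adjusted p = 0.52). At Asn-GTT-3 guanosine 34 the difference of -9.82 percentage points did not pass (limma-moderated test, adjusted p = 0.604).

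No deletion was called. Of 59 positions tested for listed deletions 0 had an adjusted p under 0.05 (0%) and groups did not overlap at 13.6%, and among the 18 guanosines 0 were called, 2 had an unadjusted p under 0.05 and none was free of overlap. The smallest adjusted p, from the limma-moderated test, was 0.143 at guanosine 24 of Leu-AAG-2, with 6.23%, 0% and 11.6% in WT and 0% in each KO library. Of 59 positions tested for uncalled reads 0 were called (0%) and groups did not overlap at 13.6%, and among the 20 guanosines 0 were called and 1 had an unadjusted p under 0.05. Glu-TTC-2 at 19 was the 1 guanosine free of overlap, with 1.28%, 0.62% and 0.76% in WT and 1.497%, 1.41% and 1.94% in KO.

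Some high mismatch shares rested on 1 library. At 10 distinct guanosines 1 library had 5% or more and each of the other 5 had under 1%: 6 of these were in WT replicate 2 and 4 in KO replicate 1. WT replicate 2 had 41.2% at guanosine 50 of Asn-GTT-1, from 82 of 199 bases, and 22.8% at guanosine 66 of Gly-CCC-1, from 94 of 412 bases. It also had 33.3% at guanosine 50 of Asp-GTC-2, where KO replicate 1 had 1.52% and the other 4 had 0%. On the same reference WT replicate 2 had 18.7% at guanosine 68, where WT replicate 3 had 2.92% and the other 4 had 0%. Guanosine 69 of Asp-GTC-2 varied between libraries of both groups, with 5.66%, 2.90% and 10.8% in WT and 20.99%, 7.92% and 0% in KO. KO replicate 1 had 18.98% at guanosine 7 of Gly-CCC-3, from 93 of 490 bases. By contrast 21 guanosines had 1% or more in each library and 10 had 5% or more in each library, the latter at 6, 7, 9 and 26. The mean base quality score had a median of 38.4 over the 57 sites with a share of 1% or more and of 38.6 over all 1063 guanosines. It was lowest, at 35.8, at guanosine 6 of Gly-TCC-1, the site with the highest mismatch share, and was 36.2 to 36.4 at 6 of the 3 Pro references with 2.65% to 3.40%. Asp-GTC-2 had 36.3 at 68 and 35.97 at 69. The part of base quality in these shares was not tested.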

How the data were processed

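Small RNA from mouse brain was sequenced in 3 WT and 3 KO libraries, grouped and numbered by the titles. For each tRNA position, the deposited tables hold raw counts (coverage, calls of each base, stops and deletions) and a mean base quality score, per the file headers. The submitters' processing notes name GATK 3.5 with no role given, and the aligner, the tRNA references and the genome build are not given in the sources used here. The references carry no genome coordinates, so none are given. No position with fewer than 30 reads is listed.

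Listed deletions were moved by 1 base, since the deleted bases given (1349 of 1349 entries) matched those after the listed position. Listed stops at base 2 equalled the coverage of base 1 in 527 of 527 cases, so stops were moved to the base before the first base read. Uncalled reads are coverage minus base calls. Numbering came from the anticodon of 106 references and from a similar reference for 38. Of 111 numbered references with a base at 33, 108 had T there.

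Shares were compared with a quasi-binomial model per position, two-sided, with the dispersion moderated by limma 3.58.1 (R 4.3.3) and floored at 1. The share of a position had to rest on 100 reads in each library and reach 1% pooled. Benjamini-Hochberg adjustment ran over all bases and references, mitochondrial ones included, at 0.05. The fit was checked on simulated data. Named sites were those with a mismatch share of 5% or more, the 10 highest stop and deletion shares (at most 2 per family), the positions 9, 10, 18, 26, 27, 34, 37 and 46, and the called or largest non-overlapping differences. Others are named where a comparison used them, and were chosen after their values were seen. The members, lists and rules were chosen with earlier results of these data known. Alternatives changed the coverage and share minimums, the test, the handling of copies and of the coverage limit, and left out each library in turn. Single values of 1 tRNA family are not reported here, and counts over all guanosines include it.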

Additional observations from a re-analysis of the deposited data

How the results depend on the processing

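Mismatch at guanosines gave 0 calls under each alternative run, and 2 to 12 guanosines had an unadjusted p under 0.05 apart from 1 with a coverage minimum of 500. Deletions gave 0 calls under each alternative but 1, and leaving out one library gave 0 to 2 calls. The 2 came without WT replicate 2, at guanosine 24 of Leu-AAG-2 and its copy, which is the WT library with no deletions there. Counting deletions as listed or as uncalled reads, both chosen after seeing the data, also gave 0. The 4 stop calls became 0 with a pooled share of at least 5%, 12 with at least 0.1% (11 of them at the coverage limit, all lower in KO), and 0 without sites at the coverage limit, since these settings test other sites. Leaving out one library gave 0 to 4 stop calls, with 0 without WT replicate 2 and 1 without WT replicate 1 or WT replicate 3. Stops as listed, which assigns them to other bases, gave 6 calls, all at the coverage limit, with 3 lower and 3 higher in KO. Under the replicate block, mismatches gave 0 calls, stops 4 and deletions 0. The mean differences of 0.80, 1.23 and -0.71 percentage points cannot change under this block, since both groups hold the same replicate numbers. Same-numbered libraries deviated together with correlations of -0.10 to 0.14, so the numbers were not taken to pair the samples.

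The mean difference at guanosine 26 reversed to -0.092 percentage points with a coverage minimum of 500, and that at guanosine 37 to 0.0039 with a minimum of 30; the cause was not tested, and other sets of sites were averaged. Leaving out one library gave 0.19 to 1.16 points at guanosine 9, 0.48 to 1.71 at guanosine 26 and -1.04 to -0.51 at guanosine 37. The other alternatives kept the direction, but the difference at guanosine 9 fell to 0.14 points with a minimum of 500 reads. At guanosine 26 it was 0.68 with a minimum of 30 reads, 0.72 with each family averaged first and 0.63 with reads pooled over sites.

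Position 26 had under 100 reads in most families with a listed guanosine there, coverage near 8000 bounds the deepest ones, shared reads make copies alike, and 3 libraries per genotype limit what the tests can call.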
